A study of Mus musculus with 2 samples.

Results

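The mitochondrial genome of the mouse holds 13 protein-coding genes, 22 tRNA genes and 2 rRNA genes. 10 of the protein-coding genes were chosen by name, not by any measured value: mt-Nd1, mt-Nd2, mt-Nd4, mt-Nd5 and mt-Nd6, which encode subunits of respiratory complex I, mt-Cytb of complex III, mt-Co1, mt-Co2 and mt-Co3 of complex IV, and mt-Atp6 of ATP synthase. Earlier results of these data were known when the genes were chosen. 8 of the 10 were present among the 35163 genes of the table. mt-Nd4 and mt-Co3 have no row in the table used here and were not analysed here. Over all cells the 8 genes summed to 3819453 counts of unique molecular identifiers (UMIs, tags that mark each captured RNA molecule before amplification). This was 33.8% of the counts of all 27 mitochondrial genes in the table, while mt-Rnr1 and mt-Rnr2, the small and large mitochondrial ribosomal RNAs, held 56.0% and 14 tRNA genes held 0.194%. The 3 protein-coding genes that were not listed, mt-Nd3, mt-Nd4l and mt-Atp8, held 9.98%.

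Each cell was 1 myofiber or a piece of one, taken from the flexor digitorum brevis, which flexes the toes. The muscle came from an untreated C57BL/6J mouse older than 3 months, by the series description a single animal. The study's methods name adult male mice of the C57BL/6J and DBA2 backgrounds. Collagenase-released myofibers from the uncut muscle, called whole in the table, were sorted with a large particle sorter (670 cells), and others were fragments from small cut portions of the muscle (93 cells), and each was placed in a well of 8 plates for mcSCRB-seq, which primes at the poly(A) tail and counts UMIs. 171 cells with more than 5000 genes and less than 20% mitochondrial counts were kept, and 592 were excluded. Since all cells came from 1 mouse, no p-value was computed, the limits given are 95% limits that cover counting error only, and the spread between plates is technical.

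Median depth was 23027 counts over the 381 cells of lane 1 and 23977 over the 382 of lane 2. The same 96 well barcodes were used on each plate, and no full cell barcode was shared between lanes. Of the excluded cells, 107 missed only the gene minimum, 111 only the mitochondrial maximum and 374 both. All 6 myofiber markers, among them Acta1 and Ttn, were found, and together reached 119628 CPM (counts scaled so that all gene counts of a group sum to 1000000) in kept cells and 44874 CPM in excluded cells. By the study's methods the sort of the uncut muscle took long and short particles alike, and the short ones looked like broken myofibers, so that cells called whole can be fragments too. Cut-muscle fragments filled the same row of every plate, so fragment and plate row cannot be told apart.

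Mitochondrial DNA is transcribed from both strands by a dedicated polymerase, Polrmt, into long precursors. The tRNAs that lie between most of the mRNAs are cut out, which frees the mRNAs and rRNAs, and most mRNAs then receive a short poly(A) tail in the mitochondrion. The proteins made from them form the catalytic core of the respiratory chain together with many subunits encoded in the nucleus, and oxidative muscle fibers are rich in all of them.

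The last 30 bases of each listed gene are shown, since poly(A) priming starts at the 3′ end of an RNA. They are taken from the GENCODE vM21 transcripts of GRCm38, the build to which the authors mapped, with the stop codon, or the part of it that is encoded, in capitals.
mt-Nd1: tttacagcgggagtaccaccatacataTAG
mt-Nd2: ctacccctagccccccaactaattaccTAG
mt-Nd4: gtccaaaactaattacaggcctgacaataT
mt-Nd5: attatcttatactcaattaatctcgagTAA
mt-Nd6: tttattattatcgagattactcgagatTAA
mt-Cytb: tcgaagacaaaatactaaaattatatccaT
mt-Co1: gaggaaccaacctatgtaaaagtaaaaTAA
mt-Co2: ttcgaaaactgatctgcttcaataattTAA
mt-Co3: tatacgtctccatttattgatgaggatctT
mt-Atp6: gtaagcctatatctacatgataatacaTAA
In mt-Nd4, mt-Cytb and mt-Co3 the encoded gene ends in a single T, and the tail supplies the rest of the stop codon. mt-Nd1 (to MT:3707) and mt-Nd2 (to MT:4951) overlap the next tRNA genes, mt-Ti from MT:3706 and mt-Tw from MT:4950. Whether the TAG shown for them is whole in the mRNA was not examined. The genes lie close together. mt-Atp6 (MT:7927-8607) shares 43 bases with mt-Atp8 before it and 1 base with mt-Co3 after it, and mt-Nd4l shares 7 bases with mt-Nd4. mt-Nd6 is the only protein-coding gene on the minus strand, and its end overlaps the end of mt-Nd5 by 14 bases on the opposite strand. Whether the counting used strand is not given in the sources used here, so reads in such overlaps are uncertain. The division of reads between mt-Nd5 and mt-Nd6, and where the tail of each mRNA begins, were not tested.

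In kept cells the 8 genes together made up 18200 CPM. mt-Cytb was the most abundant of them at 6272 CPM (95% limits 6250 to 6293), followed by mt-Nd1 at 5099 CPM, mt-Co1 at 2804, mt-Nd2 at 1696, mt-Nd5 at 1131 and mt-Nd6 at 990 CPM. mt-Atp6, which encodes the membrane subunit of ATP synthase through which protons pass, reached 207 CPM (limits 203 to 211). mt-Co2, a copper-binding core subunit of complex IV, was at 1.31 CPM (limits 1.02 to 1.66), with a count in 49 of the 171 cells. The levels of mt-Co2 and mt-Atp6 are uncertain, since nearly all of the sequence of each is also found in a nuclear copy, as described below. The 7 genes other than mt-Co2 were counted in all 171 kept cells.

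Because the genes differ in length, they were also ordered by CPM per kilobase, although a 3′ count does not scale with length in the way that full-length coverage does. On this scale kept cells had mt-Cytb at 5482, mt-Nd1 at 5328, mt-Nd6 at 1907, mt-Co1 at 1815, mt-Nd2 at 1634, mt-Nd5 at 620, mt-Atp6 at 305 and mt-Co2 at 1.91. Within single plates, mt-Cytb was above mt-Nd1 on only 2 of 8 plates, mt-Nd6 above mt-Co1 on 5 and mt-Co1 above mt-Nd2 on 5, so these neighbors are not separated beyond the plate spread. The steps from mt-Nd1 to mt-Nd6, from mt-Nd2 to mt-Nd5, from mt-Nd5 to mt-Atp6 and from mt-Atp6 to mt-Co2 were found on 8 of 8 plates. mt-Nd6 thus ranked above mt-Co1, mt-Nd2 and mt-Nd5 per kilobase but below all 3 by CPM in kept cells. Its rank is uncertain, since the division of reads between mt-Nd6 and mt-Nd5 was not tested.

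In excluded cells the order was mt-Nd1 at 60932 CPM per kilobase, mt-Cytb at 48215, mt-Nd2 at 20830, mt-Co1 at 17656, mt-Nd6 at 16828, mt-Nd5 at 5603, mt-Atp6 at 4388 and mt-Co2 at 30.6. Here mt-Nd1 was above mt-Cytb on 8 of 8 plates and mt-Nd2 above mt-Co1 on 7, while mt-Co1 was above mt-Nd6 on 4 of 8. 4 of the 8 genes, mt-Co1, mt-Nd5, mt-Atp6 and mt-Co2, had the same rank in both sets. In kept cells mt-Nd1 was also above mt-Cytb on 6 of 8 plates, so the top of the order does not separate the sets.

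Among the unlisted protein-coding genes, mt-Nd4l was counted 1069055 times, close to mt-Nd1 at 1174075, and reached 5129 CPM in kept cells and 51478 CPM in excluded cells. In the genome mt-Nd4l and mt-Nd4 share a transcript, and how reads of mt-Nd4 were assigned was not tested. mt-Atp8 had 58738 counts beside 57366 for mt-Atp6, with which it also shares a transcript. mt-Nd3 had 5 counts in all 763 cells.

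The first comparison was between kept and excluded cells. All 8 genes were higher, as a part of all counts, in excluded cells, and they were so on 8 of 8 plates. Since the filter itself uses these genes, this is a description of the filter and not a finding. Their sum was 184332 CPM in excluded and 18200 CPM in kept cells, a 10.1-fold ratio or 3.34 on the log2 scale (SD over plates 0.29, range 2.86 to 3.75, n = 8 plates). The single genes ranged from 8.79-fold for mt-Cytb to 14.4-fold for mt-Atp6, with mt-Nd2 at 12.8-fold, mt-Nd1 at 11.4-fold, mt-Co1 at 9.73-fold, mt-Nd5 at 9.04-fold and mt-Nd6 at 8.82-fold. mt-Co2, with 68 counts in kept and 326 in excluded cells, was at 16.0-fold (limits 12.3 to 21.05). Each of the 7 genes with at least 500 summed counts in the comparison was at least 1.5-fold higher in excluded cells, which held for 5.57% of the 9765 genes with that many counts.

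The scale matters for this comparison, because mitochondrial RNA takes up much of the total in excluded cells. Per count of nuclear genes the sum was higher in excluded cells by 4.33 on the log2 scale. The median of all genes lay at −0.97 with all counts as the total and at 0.02 with nuclear counts. With all counts 544 genes were at least 1.5-fold higher and 6592 lower in excluded cells, and with nuclear counts 2574 were higher and 1255 lower.

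**Figure D1:**
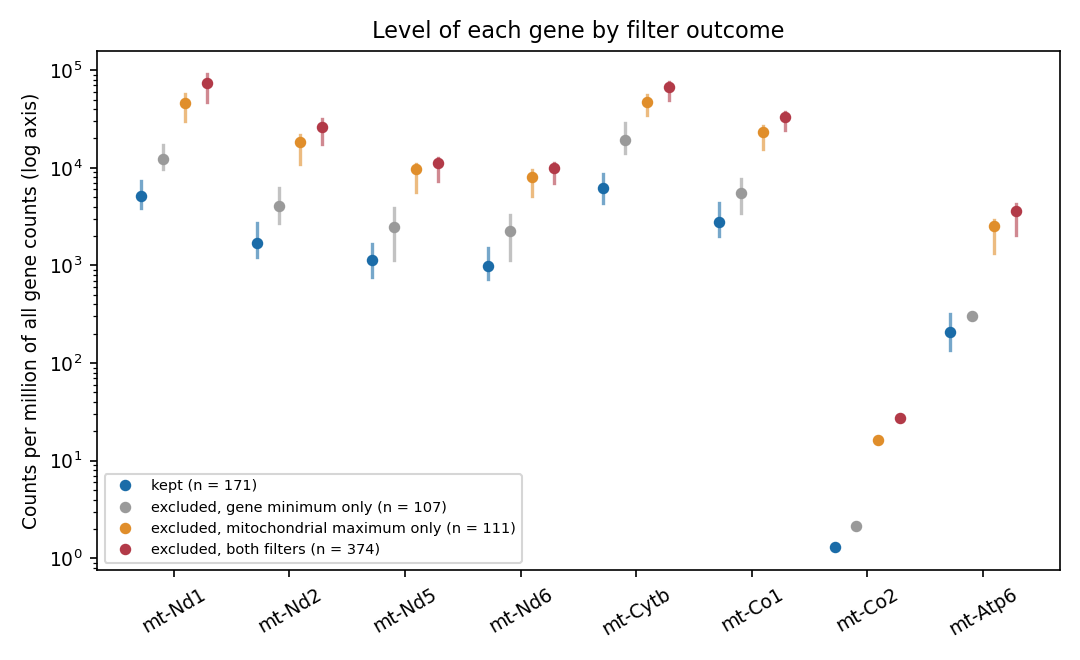
Level of each of the 8 genes in CPM on a log axis, in kept cells and in the 3 classes of excluded cells. Points are summed counts of the group and bars run from the lower to the upper quartile over cells where the lower quartile is above 0; cells over the mitochondrial maximum lie above kept cells for every gene.

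The cells that missed only the gene minimum had passed the mitochondrial maximum, so that for them the filter did not demand a high level. Their summed level was 46000 CPM, 2.53-fold above kept cells (log2 1.34, plates from 0.86 to 1.41, higher on 8 of 8). mt-Cytb was 3.06-fold higher in these cells and mt-Co1 1.98-fold. mt-Atp6 was 1.45-fold higher over all plates but on only 5 of 8 of them, from 140 counts in the 107 cells. These cells were shallow, with a median of 2247 counts and 128 counts of the 8 genes per cell.

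The number of molecules of the 8 genes per cell differed less between the sets than their share. Kept cells had a median of 4123 counts of the 8 genes (quartiles 2614 and 7088) and excluded cells 3247 (quartiles 658 and 6307), a 1.27-fold difference. Counts of nuclear genes had medians of 225207 in kept and 7168 in excluded cells, which is 31.4-fold. 245 of the 592 excluded cells, or 41.4%, had at least the median mitochondrial mRNA count of kept cells, while 0 of 592 had at least the median nuclear count of kept cells. A high nuclear count is largely fixed by the filter, which asks for many genes and a low mitochondrial share, so the nuclear gap is a description as well. The classes of excluded cells lay on both sides of the kept cells. Those over only the mitochondrial maximum had a median of 8457 counts of the 8 genes, those that missed both filters 3370 and those that missed only the gene minimum 128, and excluded fragments had 6228. mt-Rnr2 had medians of 4886 and 2604 counts per cell, which is 1.88-fold higher in kept cells.

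**Figure D2:**
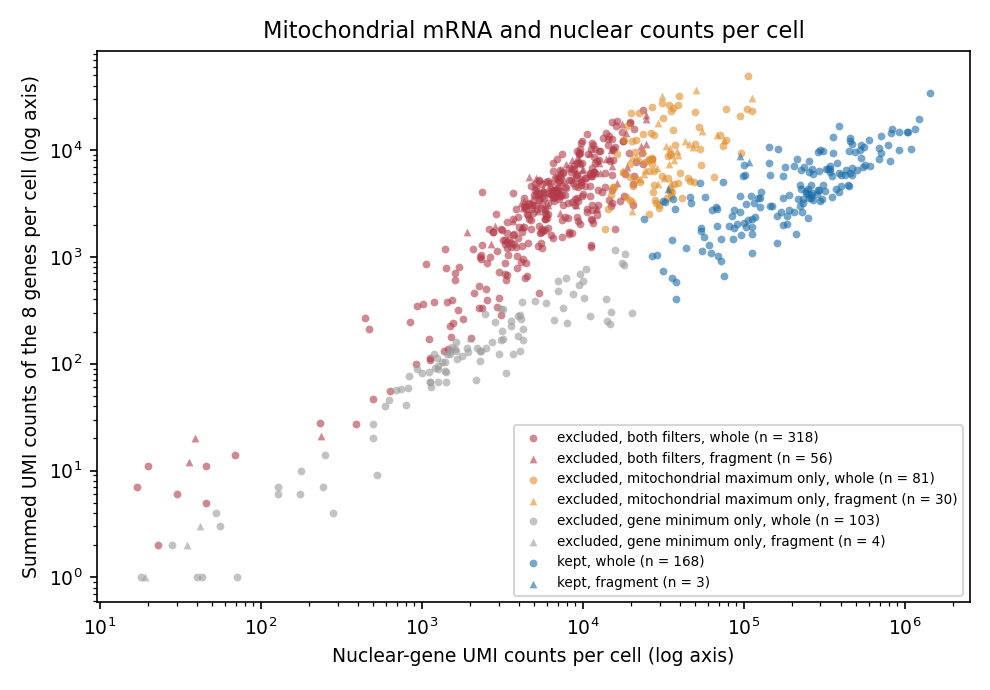
Summed UMI counts of the 8 genes (y axis, log) against counts of nuclear genes (x axis, log) in each of 763 cells, by filter outcome (color) and kind of cell (circles whole myofibers, triangles fragments). Kept and excluded cells overlap in height, with medians of 4123 and 3247 counts, and are set apart along the nuclear axis, with medians of 225207 and 7168.

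Spike-in RNA (ERCC) was counted for the same wells and gives a scale that does not use the cell's own RNA. The paper does not give the amount added to each well. The median spike-in count was 194 in kept and 77 in excluded cells, of which 38 had none. Per spike-in count, with counts summed over each group, nuclear genes were at 1130 in kept and 112 in excluded cells, which is 10.1-fold lower in excluded cells. The 8 genes were at 21.9 per spike-in count in kept and 43.4 in excluded cells, 1.98-fold higher in excluded cells. Spike-in, nuclear and mitochondrial counts all differ in depth between these cells, and fewer molecules in a cell and fewer molecules captured from it cannot be told apart here. Reads gave a wider contrast than UMIs. The median mitochondrial percent was 5.96 by UMI and 3.47 by read in kept cells, and 48 by UMI and 61.7 by read in excluded cells.

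Markers of other cell types were also a larger part of nuclear counts in excluded cells, and none of these markers was at 0 in both groups. The 4 red blood cell genes summed to 307 nuclear CPM, which is CPM with nuclear counts as the total, in excluded cells and to 19.1 in kept cells, the 4 endothelial genes to 550 and 137, the 4 fibroadipogenic genes to 247 and 58.0, and the 4 smooth muscle and pericyte genes to 360 and 44.4. The Schwann, satellite and macrophage lists were at 61.3, 31.3 and 39.7 in excluded and at 23.9, 12.8 and 16.1 in kept cells. The myofiber list was at 94482 and 127253. Malat1 and Neat1, RNAs retained in nuclei, summed to 2439 and 3253. The part of these other cells in the mitochondrial levels was not tested.

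The second measure was the make-up of the pool, the share of each gene in the sum of the 8. It does not follow by arithmetic from the mitochondrial share on which the cells were filtered. In kept cells mt-Cytb held 34.5% of the pool, mt-Nd1 28.0%, mt-Co1 15.4%, mt-Nd2 9.32%, mt-Nd5 6.21%, mt-Nd6 5.44%, mt-Atp6 1.14% and mt-Co2 0.00720%. In excluded cells mt-Nd1 led with 31.6%, before mt-Cytb with 29.9%, mt-Co1 with 14.8%, mt-Nd2 with 11.7%, mt-Nd5 with 5.54%, mt-Nd6 with 4.74%, mt-Atp6 with 1.62% and mt-Co2 with 0.0113%. mt-Nd1, mt-Nd2 and mt-Atp6 thus held more of the pool in excluded cells and mt-Cytb, mt-Nd5 and mt-Nd6 less, in each case on 8 of 8 plates. mt-Co1 held more on 4 plates and less on 4. The share of mt-Atp6 is uncertain, like its level, because of its nuclear copy.

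The mean over plates for mt-Cytb was 33.9% ± 2.62 (SD, n = 8 plates) in kept and 29.8% ± 1.49 in excluded cells. Plate 708 gave the highest value for kept cells, 40.1%, and plate 706 the lowest, 31.4%. For mt-Nd2 the means were 9.38% ± 0.93 and 11.7% ± 0.98, and for mt-Atp6 1.15% ± 0.24 and 1.61% ± 0.35. The differences between kept and excluded cells exceeded 1 SD over plates for these 3 genes. mt-Co1 had means of 15.4% ± 2.61 and 14.9% ± 2.44, well within that spread. Its share was highest on plate 707 in both sets, 20.5% in kept and 19.5% in excluded cells.

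**Figure D3:**
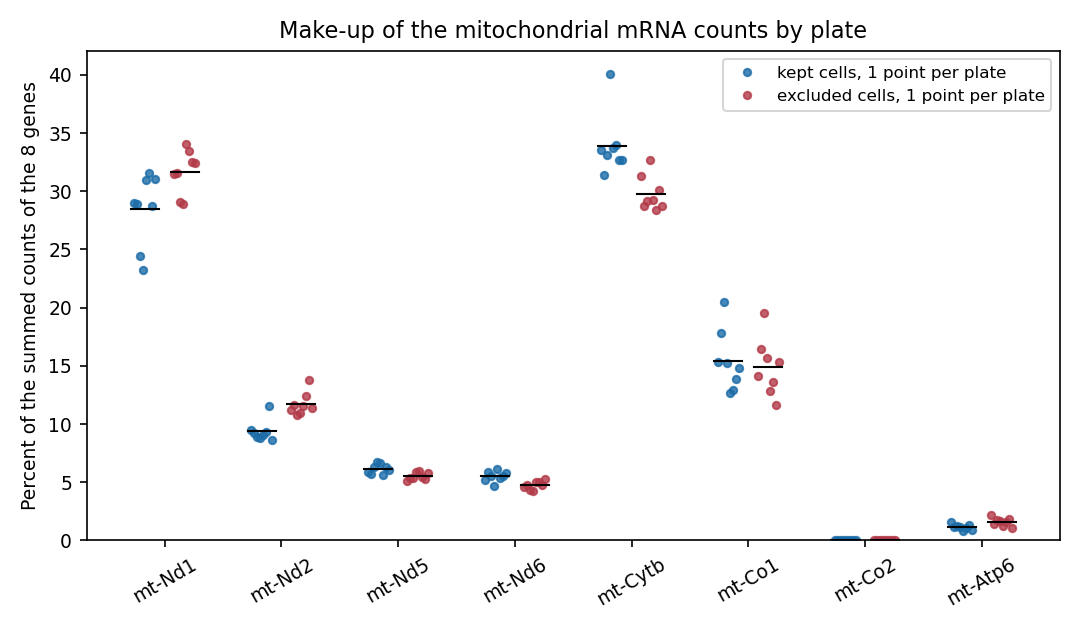
Percent of the summed counts of the 8 genes held by each gene, 1 point per plate, for kept and excluded cells, with the mean of the 8 plates as a line. mt-Nd2 and mt-Atp6 sit higher and mt-Cytb lower in excluded cells, and mt-Co1 overlaps.

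The lanes also differed in the pool. In kept cells mt-Nd1 held 25.8% on lane 1 and 30.6% on lane 2, mt-Cytb 35.5% and 33.2%, and mt-Co1 16.9% and 13.7%. mt-Cytb thus held more of the kept pool than mt-Nd1 on both lanes, with a wider distance on lane 1. In excluded cells mt-Cytb led on lane 1, with 30.8% against 30.1% for mt-Nd1, and mt-Nd1 on lane 2, with 33.1% against 29.1%.

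Along the mitochondrial share the pool did not change in 1 direction below the 20% limit. In cells with 0 to 5%, 5 to 10% and 10 to 20% mitochondrial counts mt-Cytb held 34.7%, 34.1% and 35.5% of the pool, mt-Nd2 8.84%, 9.62% and 9.53%, mt-Atp6 1.02%, 1.23% and 1.15%, and mt-Nd1 29.8%, 26.6% and 27.5%. In cells with 20 to 40%, 40 to 60% and over 60% mt-Cytb held 32.8%, 29.98% and 28.98%, mt-Nd2 10.8%, 11.5% and 12.1%, mt-Atp6 1.38%, 1.61% and 1.71%, and mt-Nd1 30.6%, 31.5% and 32.1%. Above the limit mt-Cytb was thus lower and the other 3 higher with each step. The 6 sets held 72, 83, 123, 118, 187 and 180 cells. Their median nuclear counts were 287809, 117755, 3204, 12160, 7194 and 9238.5, so the sets also differ in depth. The part of depth in these steps was not tested. The cells that missed only the gene minimum did not follow the other excluded cells. mt-Cytb held 41.7% of their pool (limits 41.0 to 42.3), mt-Nd1 26.6%, mt-Nd2 8.83% and mt-Atp6 0.656%. In this class mt-Cytb held a larger share than in kept cells on 7 of 8 plates, and mt-Atp6 a smaller one on 7 of 8.

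The third measure was the ratio to mt-Rnr2, the RNA of the large mitochondrial ribosomal subunit. Here the total of the cell cancels, and both sides come from the same organelle. How well priming at the poly(A) tail captures mt-Rnr2 was not tested. A ratio of counts thus need not be the ratio of molecules. In kept cells there were 0.739 counts of the 8 genes for each count of mt-Rnr2 (limits 0.737 to 0.741), and in excluded cells 0.973 (limits 0.971 to 0.974). The log2 difference was 0.40 and was above 0 on 8 of 8 plates, from 0.13 on plate 710 to 0.59 on plate 711 (SD 0.18). mt-Nd1 was at 0.207 in kept and 0.308 in excluded cells, mt-Co1 at 0.114 and 0.144, mt-Cytb at 0.255 and 0.291 and mt-Atp6 at 0.00842 and 0.0158. mt-Nd6 and mt-Cytb were higher in excluded cells on 7 of 8 plates and the other 6 genes on 8 of 8. mt-Rnr1, the small-subunit rRNA, was at 0.472 and 0.504 per mt-Rnr2.

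The classes of excluded cells differed in this ratio as well. It was 1.22 in cells that missed only the gene minimum, 0.849 in those over only the mitochondrial maximum and 1.09 in those that missed both. The 111 cells over only the maximum, which were the deepest of the excluded cells with a median of 55404 counts, were thus nearest to the kept cells. Over kept cells the ratio was lower in deeper cells, with a Spearman correlation of −0.34 to total counts (n = 171 cells of 1 mouse, which share the total). The part of depth in the difference was not tested.

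**Figure D4:**
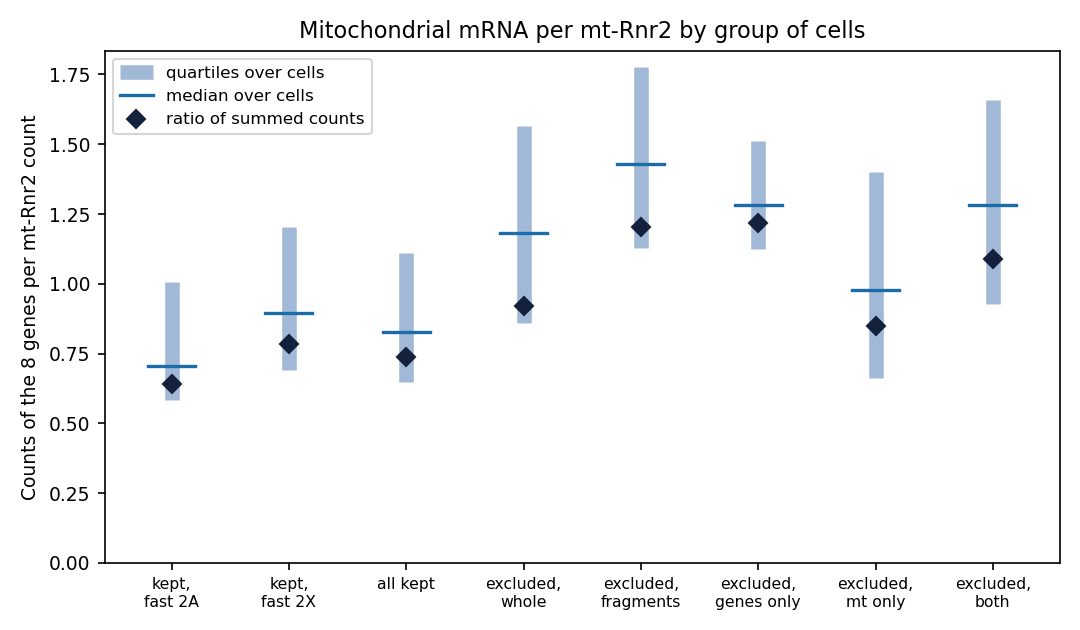
Counts of the 8 genes per count of mt-Rnr2 by group of cells, as the ratio of summed counts (diamonds) and as median and quartiles over cells with at least 50 counts of mt-Rnr2. Of the groups drawn, which leave out the 3 kept fragments and the slow and fast 2B cells, kept fast 2A cells are lowest at 0.642 and excluded cells that missed only the gene minimum highest at 1.22.

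Fiber classes were set by the largest of Myh1, Myh2, Myh4, Myh7 and Myh8, the myosin heavy chain genes that name the fiber types. Of the 171 kept cells, 117 were fast 2X (Myh1), 51 fast 2A (Myh2), 2 slow (Myh7) and 1 fast 2B (Myh4). The paper counts more cells as slow, since it also takes modestly raised Myh7, and describes many cells with both Myh1 and Myh2. The rule used here gives each cell a single class, so the classes can hold such mixed cells. The comparison addressed whether the mitochondrial mRNAs differ between the more oxidative fast 2A and the more glycolytic fast 2X fibers. The summed level was 20936 CPM in fast 2A and 17337 CPM in fast 2X cells, 1.21-fold higher in fast 2A (log2 0.27, SD over plates 0.21, n = 8). It was above 0 on 7 of 8 plates, from −0.05 on plate 708 to 0.54 on plate 712. The direction did not hold for the mean over cells, which weighs each cell equally and gave −0.16. Fast 2A cells had a median of 206510 counts and fast 2X cells 255726. Red blood cell markers summed to 8.06 CPM in fast 2A and 21.2 CPM in fast 2X cells, smooth muscle and pericyte markers to 24.8 and 47.3, and endothelial markers to 126 and 129. Their part in the comparison was not tested.

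mt-Co1, the catalytic subunit of complex IV, had the largest difference of the 7 genes with at least 500 counts. It was at 3624 CPM in fast 2A and 2534 CPM in fast 2X cells, 1.43-fold (limits 1.41 to 1.45), and was higher on 8 of 8 plates, from 0.29 to 0.71 on the log2 scale. As a mean over cells its log2 ratio was 0.06. mt-Atp6 was at 268 and 190 CPM, 1.41-fold, and was higher on 6 of 8 plates. mt-Nd2 was 1.27-fold higher, mt-Nd5 1.22-fold, mt-Cytb 1.15-fold, mt-Nd1 1.15-fold and mt-Nd6 1.11-fold, on 5 to 7 of 8 plates. None of the 7 reached 1.5-fold, which 2.57% of 8649 genes did in this direction. mt-Co2 had 22 counts in fast 2A and 45 in fast 2X cells, a ratio of 1.61 with limits from 0.920 to 2.74, so no difference was detectable with so few counts.

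The rRNAs differed more than the mRNAs. mt-Rnr1 was at 16883 CPM in fast 2A and 9989 CPM in fast 2X cells, 1.69-fold, and mt-Rnr2 at 32630 and 22106 CPM, 1.48-fold, each higher in fast 2A on 8 of 8 plates. Per mt-Rnr2 count, the 8 genes were therefore lower in fast 2A, at 0.642 against 0.784 (log2 −0.29), and were higher on only 2 of 8 plates. mt-Co1 was nearly equal per mt-Rnr2, at 0.111 and 0.115, and was higher in fast 2A on 3 of 8 plates. Within the pool mt-Co1 held 17.3% in fast 2A and 14.6% in fast 2X cells, and its share was higher in fast 2A on 8 of 8 plates. The shares of mt-Cytb, 33.2% and 34.8%, and of mt-Nd1, 27.1% and 28.5%, were lower in fast 2A on 7 and 6 of 8 plates.

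**Figure D5:**
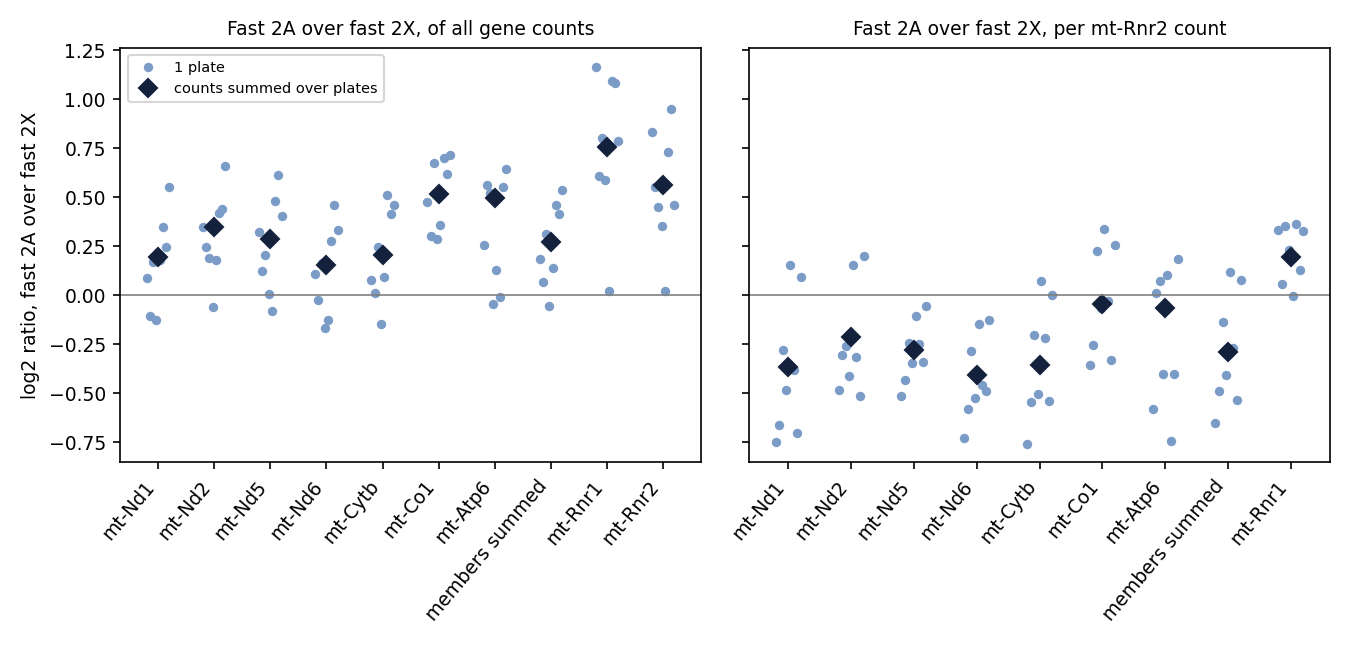
Log2 ratio of fast 2A over fast 2X kept cells for 7 genes, their sum with mt-Co2 (members summed) and the rRNAs, as a part of all counts (left) and per mt-Rnr2 count (right), with 1 point per plate and a diamond for counts summed over plates. On the left mt-Co1 lies above 0 on all 8 plates, and on the right the summed genes lie below 0 on 6 of 8.

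Among the excluded cells with at least 20 Myh counts, 66 were fast 2A and 420 fast 2X, and the summed level was 167062 and 187891 CPM (log2 −0.17). 51 of these 66 fast 2A cells came from plate 705. Both classes had 2 or more cells on 5 plates, and fast 2A was higher on 2 of these and lower on 3, and mt-Co1 was also higher on 2 of 5. The rare classes gave values of single cells. The 2 slow cells had 20420 and 27010 CPM of the 8 genes, with mt-Co1 at 17.6% and 13.9% of the pool. The fast 2B cell had 15294 CPM and the highest mt-Co1 share of the 3, 26.97%.

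The nuclear partners of these genes were described from lists of known subunits. Of 35 nuclear complex I subunits with at least 500 counts, 33 had a ratio of fast 2A over fast 2X above 0, with a median log2 of 0.22. For complex III this was 9 of 9 with a median of 0.26, for complex IV 12 of 12 with 0.42, and for ATP synthase 15 of 15 with 0.33, where all genes had a median of −0.09. Complex IV thus had the highest median among the nuclear lists. Among the listed mitochondrial genes with at least 500 counts mt-Co1 had the highest log2 ratio, 0.52, with mt-Atp6 close at 0.50. The rRNAs were higher, with mt-Rnr2 at 0.56 and mt-Rnr1 at 0.76. mt-Co1 was the only listed complex IV gene with that many counts, and a link to the nuclear complex IV genes was not tested. 2 of the 71 nuclear subunits (2.82%, beside 2.57% of all genes) were at least 1.5-fold higher. They were Ndufb3, an accessory complex I subunit, at 168 and 109 CPM (log2 0.63), and Cox7a1, the muscle form of a complex IV subunit, at 472 and 295 CPM (log2 0.68). Uqcrq of complex III had a log2 ratio of 0.55, Cox6a2 of complex IV 0.55 and Atp5g3 of ATP synthase 0.49. Genes of mitochondrial transcription and replication were divided, with 3 of 6 above 0 and a median of 0.01. Polrmt, the mitochondrial RNA polymerase, was at 10.8 CPM in fast 2A and 18.3 CPM in fast 2X cells (log2 −0.76), and Tfb2m, its initiation factor, was at 0.41. Of 9 genes of mitochondrial RNA processing and stability 5 were above 0, again with a median of 0.01. Mtpap, the mitochondrial poly(A) polymerase, was at 8.40 and 12.6 CPM (log2 −0.59).

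In excluded over kept cells nearly all nuclear partners were lower, while the mitochondrial genes, which the filter itself uses, were higher. Per count of nuclear genes, 0 of 35 complex I subunits were above 0 in excluded over kept cells, with a median log2 of −0.58. For complex III this was 0 of 9 with −0.46, for complex IV 2 of 12 with −0.73 and for ATP synthase 0 of 15 with −0.60. The 2 complex IV genes above 0 were Cox6b1 at 1.03 and Cox6a1, the form found outside striated muscle, at 0.99. On the same scale the 8 mitochondrial genes were at 4.33, which is a description of the filter, and the median of 9747 nuclear genes was 0.02. The fall was not particular to these subunits, since all 6 myofiber markers were below 0 as well, with a median of −0.47. Of the 7 transcription and replication genes 3 were above 0, with a median of −0.45. Of the 9 processing genes 3 were above 0, with a median of −0.29 and with Tbrg4, a mitochondrial RNA-binding protein, at 1.54.

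Cut-muscle fragments and cells called whole, which can hold broken myofibers as well, were compared over all cells first. The 8 genes were at 190333 CPM in fragments and 48982 CPM in whole myofibers, 3.89-fold (log2 1.96), and were higher on 8 of 8 plates. Only 3 of the 93 fragments were kept, against 168 of the 670 whole myofibers, so this ratio largely follows that of excluded over kept cells. Among excluded cells alone, the 90 fragments were at 200200 CPM and the 502 whole myofibers at 180005 CPM, which is 1.11-fold (log2 0.15, SD over plates 0.24). The ratio was above 0 on 6 of 8 plates, from −0.31 on plate 707 to 0.40 on plate 710, so the difference was within the spread between plates. mt-Nd1 and mt-Nd2 were each 1.18-fold higher in fragments, mt-Cytb 1.12-fold and mt-Atp6 1.11-fold. mt-Nd6 was at 1.03, mt-Co1 at 0.995 and mt-Nd5 at 0.952 times the level of whole myofibers. None of the 7 genes with at least 500 counts reached 1.5-fold, which 1.28% of 2274 genes did.

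The rRNAs were lower in the excluded fragments, with mt-Rnr2 at 166270 CPM against 195891 CPM in whole myofibers. Per mt-Rnr2 count the 8 genes were at 1.20 in excluded fragments and 0.919 in excluded whole myofibers (log2 0.39), higher on 7 of 8 plates. In the pool, the mt-Co1 share was lower in excluded fragments on 8 of 8 plates (log2 −0.16), and that of mt-Nd1 higher on 7 of 8. The 3 kept fragments had a ratio of 1.59 per mt-Rnr2, where the 168 kept whole myofibers had 0.730. Excluded fragments had a median of 29739 counts and excluded whole myofibers 14745.5. Endothelial markers were at 203 CPM in fragments and 277 CPM in whole myofibers, fibroadipogenic markers at 59.9 and 133, and red blood cell markers at 99.7 and 158. Their part in the ratio was not tested.

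Parts of the mitochondrial genome are present as copies in nuclear chromosomes, and a read from such a stretch cannot be placed. The reads of this study were 66 bases long. Of the 619 stretches of 66 bases in mt-Co2, 616 (99.5%) were found word for word in another annotated transcript, and in mt-Atp6 613 of 616 (99.5%). In mt-Co3 this was 99.9%, in mt-Nd4 61.8%, in mt-Co1 43.9%, in mt-Nd2 6.58% and in mt-Nd5 2.90%. In the unlisted mt-Nd4l it was 98.7% and in mt-Nd3 97.9%. For mt-Nd1, mt-Nd6 and mt-Cytb it was 0, as for mt-Rnr1 and mt-Rnr2. The search covered annotated transcripts and not the whole genome. 7 unprocessed pseudogenes in a row on chromosome 1 hold such copies, and mt-Co2 matches Gm28661 (chr1:24614885-24615565, minus strand) over 681 bases with 0 mismatches. The last 66 bases of both are shown, with the stop codon of mt-Co2, which the annotated copy lacks, in capitals.
mt-Co2: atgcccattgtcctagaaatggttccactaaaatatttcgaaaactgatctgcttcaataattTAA
Gm28661: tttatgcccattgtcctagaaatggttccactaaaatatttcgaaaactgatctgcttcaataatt
Gm28661 had 13176 counts where mt-Co2 had 394. Gm10925, the copy of mt-Atp6, had 7684 counts beside 57366 for mt-Atp6, and Gm29216, which matches the last 492 bases of mt-Co1 with 6 mismatches, had 35147 beside 570955. Gm28437 and Gm28439, the copies of mt-Co3 and of the first 876 bases of mt-Nd4, had 42942 and 9124 counts.

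The counts of these copies moved with the mitochondrial genes. In excluded over kept cells their log2 ratios ran from 3.26 for Gm29216 to 3.93 for Gm28438, the copy of mt-Nd3, beside 3.34 for the 8 genes. How reads were divided between a gene and its copy was not tested, so the levels of mt-Co2 and mt-Atp6 and, in part, of mt-Co1 are uncertain. The 6 copies on chromosome 1 that were in the table made up 0.0478% of counts in kept and 0.542% in excluded cells. If they were counted as mitochondrial, 170 cells instead of 171 would be kept. Copies on other chromosomes were not included.

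Over the 171 kept cells the 7 genes other than mt-Co2 varied together. Taken per nuclear count, their 21 pairs had Spearman correlations from 0.76 (mt-Nd5 with mt-Atp6) to 0.91 (mt-Nd1 with mt-Cytb), with a median of 0.85. mt-Nd4l followed mt-Nd1 at 0.96. With mt-Rnr2, mt-Nd5 had a correlation of 0.89 and mt-Nd1 0.69. These values describe cells of 1 mouse and share the nuclear total of each cell.

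The 5 nuclear genes whose share of nuclear counts was most like the summed 8 genes, among 3937 with a mean of at least 10 counts per kept cell, were Gm13340 (Spearman 0.76), Gm29216 (0.75), Myo3a (0.68), Gm28437 (0.66) and Gm28661 (0.60). 4 of the 5 are pseudogenes, 3 of them in the row on chromosome 1. Gm13340 (chr2:22588103-22589647, minus strand) lies in an intron of Myo3a (chr2:22227503-22618252, plus strand), an unconventional myosin gene, together with the pseudogenes Gm13339 and Gm13341. These 3 are copies of mitochondrial sequence as well. Gm13340 shared 283 of the 1480 stretches of mt-Co1, Gm13341 162 of the 619 of mt-Co2 and Gm13339 64 of the 973 of mt-Nd2. In kept cells Myo3a was at 172 CPM and Gm13340 at 111 CPM. The log2 ratios of Myo3a and Gm13340 for excluded over kept cells per nuclear count were 4.38 and 4.32, beside 4.33 for the 8 genes. The part of reads from the mitochondrial genome in the Myo3a count was not tested.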

How the data were processed

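Single-cell libraries were made with mcSCRB-seq and sequenced on 2 lanes. Reads were mapped to GRCm38 with ERCC sequences by STAR 2.5.4b and counted per gene with featureCounts in zUMIs, per the study's methods. The deposited table holds UMI counts, not normalized, and was handled as estimated counts because 2 lines of percentages stand in the same columns, while every gene value is whole. The submitters' processing notes also name Cell Ranger 3.1.0, in no stated role. 2 gene names occurred more than once and were kept apart.

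The study's filters were applied. The cells of each group were added up and given as CPM with exact Poisson limits, ratios with exact conditional binomial limits and shares with Clopper-Pearson limits, at 95%. The deposited mitochondrial percentage matched that of the 27 mt- genes within 5e-09 in its own unit. Ratios within cells needed 50 counts of mt-Rnr2, and shares within cells 100 counts of the 8 genes. Doublets were not called, since cells were sorted singly into wells. A gene was called at 1.5-fold with at least 500 summed counts, and 3 genes of the lists had no row in the table used here. The spread is the SD over 8 plates.

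Alternatives left out each lane and each plate, and took means or medians over cells, nuclear totals, TMM factors (edgeR 4.0.16), DESeq2 1.42.0 size factors, other filters and thinning to 500 counts. Spike-in scaling and the addition of the copies were chosen after seeing the data. Work was done in Python 3.11.15 with pandas 2.3.3, NumPy 2.4.6 and SciPy 1.17.1, and in R 4.3.3, and the ratio step was tested on simulated data. The genes and lists were chosen with earlier results of these data known. The genes named were the listed ones, the other mitochondrial genes, the 5 nuclear genes most alike, and at most 2 from each end of each list.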

Additional observations from a re-analysis of the deposited data

How the results depend on the processing

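Results rest on 1 mouse. Few counts limit mt-Co2, and depth limits the cells under the gene minimum. The levels of mt-Co2 and mt-Atp6 are uncertain because of their nuclear copies. No paired test was made, as the lanes and plates hold cells of 1 mouse. The groups compared share plates, and ratios within plates are given. A value was taken to have moved when it left the SD over plates. For the 5 summed results and the background shares, 101 of 135 planned values did not move and 34 moved, and of 977 values of single genes 197 moved and 6 changed the sign of a value of at least 1.5-fold. Whatever their size, 30 of 834 single-gene log2 ratios took the opposite sign, 26 of them in fast 2A over fast 2X, where each of the 8 genes did so under at least 1 alternative. The causes were not tested. Excluded over kept cells (log2 3.34) gave 2.86, 3.04 and 3.75 within plates 705, 708 and 709, 2.84 as mean over cells, 4.33 with nuclear totals, 3.75 with TMM, 3.67 with DESeq2 size factors and, chosen after seeing the data, 0.99 per spike-in count. The mt-Cytb share in kept cells (34.5%) gave 31.4% and 40.1% within plates 706 and 708 and was 10.5% of all mitochondrial counts. The ratio to mt-Rnr2 (0.40) gave 0.13, 0.59 and 0.20 within plates 710, 711 and 712. Fast 2A over fast 2X (0.27) gave −0.052 and 0.54 within plates 708 and 712, −0.16 as mean over cells and −0.17 in excluded cells. Fragments over whole myofibers (1.96) gave 1.53 and 1.67 within plates 705 and 707, 0.70 as mean and 0.88 as median over cells, 2.67 with nuclear totals, 2.27 with TMM, 2.25 with DESeq2 size factors, 0.48 per spike-in count (chosen after seeing the data) and 0.15 in excluded cells. Of the values of at least 1.5-fold, mt-Nd5 (−0.071) and mt-Co1 (−0.0076) changed sign there, as did mt-Co2 in fast 2A over fast 2X within plates 705 (−0.18) and 706 (−0.61), as mean over cells (−0.12) and in excluded cells (−0.39). Leaving out a lane gave 3.16 to 3.53, 33.2% to 35.5%, 0.37 to 0.42, 0.16 to 0.33 and 1.89 to 2.03 for the 5 results, and leaving out a plate 3.29 to 3.41, 33.0% to 34.9%, 0.37 to 0.43, 0.21 to 0.36 and 1.92 to 2.01. The share of genes past the fold with no minimum, with at least 100 counts and at 2-fold was 21.5%, 11.8% and 2.57% for excluded over kept cells, 17.6%, 5.18% and 0.396% for fragments over whole excluded cells, and 14%, 4.12% and 0.775% for fast 2A over fast 2X. The number of kept cells was 196 with a minimum of 2000 genes, 234 with the rRNAs left out of the mitochondrial share and 135 with a maximum of 10%.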
